A study of Mus musculus with 12 samples.

Results

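The genes of the mitochondrial protein import machinery, the TOM and TIM translocases with their motor, relay and processing peptidase, were examined in the lumbar spinal cord of MFN2 mice. The set held every protein-coding mouse gene whose symbol begins with Timm or Tomm, together with Pam16, Grpel1, Grpel2, Dnajc15, Dnajc19, Chchd4, Gfer, Pmpca and Pmpcb, and each was matched by its Ensembl identifier. It comprised 35 of the 49548 genes counted, and 32 of them were among the 15942 genes with enough reads to be tested.

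RNA was sequenced from 8 MFN2 and 4 WT mice, all untreated and 30 days old. The study speaks of total RNA sequencing, while its supplement names poly(A) mRNA sequencing and a stranded total RNA kit. The type of library is therefore uncertain. MFN2 mice are the MitoCharc1 model of Charcot-Marie-Tooth disease type 2A (line L51Ugfm/J on a B6;D2 background, with the transgene Tg(Eno2-MFN2*R94Q)), a single transgenic line in which the neuron-specific rat Eno2 promoter drives human MFN2 carrying R94Q, while the mouse Mfn2 gene is intact. The WT mice are labelled C57BL/6, and the methods of the study speak of WT littermates, so that the exact background of the controls is uncertain. Each library came from 1 mouse and is named here by its library number. Total counts ran from 19359454 to 26738930 per library. Library numbers fell into separate runs, with WT 44 to 47 and MFN2 41 to 43 in the first and MFN2 72 to 76 in the second. What these runs stand for is not stated in the labels or the methods, and "run" here means only a range of library numbers. The genotypes were therefore compared over all 12 libraries, within the first run, and between MFN2 72 to 76 and WT, where run and genotype cannot be told apart.

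The labelled tissue was checked against its defining genes. Motor neuron genes (Chat, Isl1, Mnx1, Slc5a7, Slc18a3 and Prph) were detected in every library, at a summed level of 242 ± 86.7 CPM, counts scaled to sequencing depth, in WT (SD, n = 4). Library 43 (MFN2) stood apart. Its list of forebrain neuron genes summed to 4685 CPM, against 109 to 207 CPM in the other 11 libraries, its caudal Hox genes to 35.4 CPM against 147 to 242 CPM, and its motor neuron genes to 35.5 CPM against 154 to 370 CPM. In library 73 (MFN2) and library 47 (WT), skeletal muscle markers (Ckm, Acta1 and Myh4) summed to 168 and 182 CPM, against 0.895 to 28.9 CPM in the others. In MFN2 72 to 76 against WT, 7 members (21.9%) were called without library 73, the same genes as with all libraries, beside 19.5% of all genes. Without library 47 there were 7 as well, with Tomm5 called and Grpel2 not, beside 20.2% of all genes. The counts of members called, below an unadjusted p of 0.05 or with separate groups that include library 43 are also given without it. By Xist and Ddx3y, libraries 41, 43 and 44 came from males (Ddx3y at 66.4 to 89.4 CPM) and all others from females (Ddx3y at 0), so MFN2 72 to 76 were compared with WT of mixed sex. Mouse Mfn2 was at 194 to 228 CPM in WT and 190 to 223 CPM in MFN2 mice, a log2 fold change of −0.047 ± 0.065 (SE; Benjamini-Hochberg adjusted p = 0.733 in edgeR's quasi-likelihood test). The human transgene was not analysed here.

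Nearly all mitochondrial proteins are made in the cytosol and enter the organelle through the TOM complex of the outer membrane. Proteins with a cleavable presequence then cross the inner membrane through TIM23, driven by the membrane potential and by a motor built around mitochondrial Hsp70, and the matrix processing peptidase removes the presequence. Small TIM chaperones carry hydrophobic carrier proteins across the intermembrane space to TIM22, and the MIA40 relay folds cysteine-rich proteins there, the small TIM proteins among them. Neurons depend on this route along their whole axon, since most proteins of the mitochondria that reach the terminals are encoded in the nucleus.

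Levels per kilobase of exon (RPKM) spanned a wide range in WT cord. The highest was Timm8b, a small TIM chaperone, at 69.0 ± 8.30 RPKM (SD, n = 4). It was followed by Tomm7, a small subunit that modulates the stability of the TOM complex, at 40.6 ± 4.06 RPKM, and by Tomm20, the presequence receptor, at 36.0 ± 1.71 RPKM. The lowest tested member was Timm8a1, the mouse counterpart of the gene mutated in deafness-dystonia syndrome, at 1.03 ± 0.253 RPKM. The median of all 35 members, the 3 untested ones included, was 8.5 RPKM, with an SD of 0.279 over the mice. Of the 31 pairs of neighbours in this order, 24 overlapped between mice. The 7 that did not were Timm8b over Tomm7, Tomm20 over Tomm5, Timmdc1 over Pmpca, Gfer over Tomm40l, Timm50 over Pam16, Timm9 over Timm21, and Timm10b over Timm8a1. By the longest transcript, 6 of these 7 kept their order without overlap, while Timmdc1 and Pmpca turned and overlapped (18.1 and 19.6 RPKM).

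**Figure D1:**
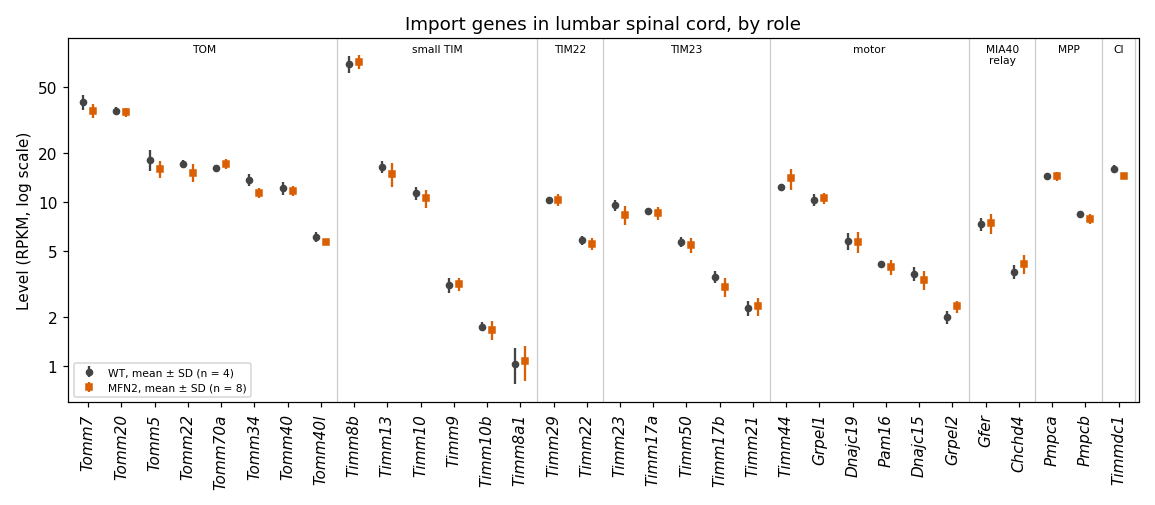
Level of the 32 tested import genes in RPKM (log axis), grouped by role, with MPP for the processing peptidase and CI for complex I assembly; circles are the mean of 4 WT mice, squares the mean of 8 MFN2 mice and bars the SD. The mean levels in WT ran from 1.03 RPKM (Timm8a1) to 69.0 RPKM (Timm8b).

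Within roles, members of a complex differed in level. In TOM, Tomm22, the central receptor, was at 17.1 ± 0.975 RPKM, Tomm70a, the receptor for carrier proteins, at 16.1 ± 0.65 RPKM, and Tomm40, the pore itself, at 12.1 ± 1.06 RPKM. By the length of the longest transcript the order of these 3 turned, with Tomm70a at 26.3 ± 1.07, Tomm40 at 19.8 ± 1.73 and Tomm22 at 18.0 ± 1.03 RPKM. In TIM23, the channel gene Timm23 was at 9.52 ± 0.718 RPKM and the receptor gene Timm50 at 5.72 ± 0.37 RPKM. The catalytic subunit of the processing peptidase, Pmpcb, was at 8.5 ± 0.365 RPKM and its substrate-binding partner Pmpca at 14.4 ± 0.294 RPKM. The messages of proteins that work as partners were thus not at equal levels per length in this tissue.

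Where the machinery has paralogues, 1 copy was the more abundant in WT cord. The ratio per length of Timm17a to Timm17b, alternative subunits of TIM23, was 2.53 ± 0.254 (SD, n = 4). That of Tomm40 to Tomm40l was 1.98 ± 0.069, and that of Grpel1 to Grpel2, the nucleotide exchange factors of mitochondrial Hsp70, was 5.18 ± 0.249. By the length of the longest transcript in place of all exons, these ratios were 2.56 ± 0.256, 2.96 ± 0.103 and 3.09 ± 0.149, so that their size depends on the length used. Timm8b exceeded Timm8a1 by a ratio of 69.8 ± 18.2, which rests on 23 to 39 counts of Timm8a1 per WT library. In all 4 WT mice the same copy of each pair was the higher. Without knowledge of the strand setting, the Tomm40l level is uncertain, since 64.3% of its exon bases are shared with Nr1i3 on the opposite strand, which itself held 5 to 17 counts per library. Opposite-strand genes with more counts shared 20.4% of the exon bases of Pmpca, 18.7% of Pam16, 15.6% of Timm8b and 11.6% of Grpel1. The levels of these members carry the same uncertainty.

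Tomm20l, Timm8a2 and Tomm6 were not tested. Tomm20l, a paralogue of the Tomm20 receptor, had 0 counts in 10 of 12 libraries and 3 counts in all. Timm8a2, a paralogue of Timm8a1, had 0 counts in 7 libraries and 8 in all. Both lay at or near the floor of 3 counts, which is 0.112 to 0.155 CPM depending on the library (counting error only). Tomm6, a small subunit of the TOM complex, had 0 to 3 counts per library, 10 in all. Its exons (chromosome 17, 47686646 to 47688386, minus strand, GRCm38) share 76% of their bases with the overlapping gene Gm21981 on the same strand, which held 0 to 3 counts, and 19.4% with Tomm6os on the opposite strand, which held 38 to 72. A low count of Tomm6 in these files is therefore not a measure of its level, because reads in bases shared by overlapping genes may not have been assigned, and this was not tested.

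The import genes took a steady share of the RNA. Their summed level was 1132 ± 45.5 CPM in WT (n = 4) and 1110 ± 15.8 CPM in MFN2 mice (n = 8), with 1085 to 1192 CPM in WT and 1087 to 1141 CPM in MFN2, so that the genotypes overlapped. They made up 0.107% to 0.115% of the counts in every library. The median coefficient of variation of a member was 8.09% over WT mice, 9.9% over MFN2 41 to 43 and 5.42% over MFN2 72 to 76, where the medians over all tested genes were 10.04%, 18.7% and 9.19%. These genes were not matched to the members by level. Library 43 had the lowest level of the 12 libraries for 11 of the 32 members and the highest for 5.

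Over all 12 libraries, no import gene passed the test between MFN2 and WT mice. With edgeR's quasi-likelihood test, 0 of 32 members had an adjusted p at or below 0.05, as did 0 of the 15942 genes tested (0%). At an unadjusted p below 0.05 there were 3 members (9.38%) and 2386 genes (15.0%), and DESeq2 called 0 members and 200 genes. No member had separate groups, against 2.04% of all genes. The members' median log2 fold change was −0.051, beside 0.0038 for all genes, and 21 of 32 were below 0. Log2 fold changes ran from −0.26 to 0.21 and their SEs from 0.056 to 0.23. Without library 43 the count of members called was again 0, while 19 genes were called, 7 members had an unadjusted p below 0.05 (21.9%, beside 21.1% of all genes), 22 were below 0 and none had separate groups (2.85% of all genes). The count at an unadjusted p below 0.05 also moved without library 42 (7 members, 21.9%, beside 18.1% of all genes) and without library 41 (5 members, 15.6%, beside 21.1%). There were 3 members without library 45 (9.38%, beside 8.92% of all genes) and 2 without library 46 (6.25%, beside 9.05%). Without library 47 there were 4 (12.5%, beside 10.1%), and without library 44 there were 2 (6.25%, beside 15.7%).

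The members with the lowest adjusted p in that comparison were Tomm34, Timmdc1 and Grpel2. Tomm34 encodes a cytosolic co-chaperone that binds Hsp70 and Hsp90, and its log2 fold change was −0.26 ± 0.073 (SE; adjusted p = 0.254 by edgeR with Benjamini-Hochberg adjustment). Timmdc1, an assembly factor of respiratory complex I that is related to the TIM17 family by sequence, was at −0.16 ± 0.056 (adjusted p = 0.278 by edgeR). Grpel2 was at 0.21 ± 0.087 (adjusted p = 0.299 by edgeR). Of the core of the route, the 95% intervals of the log2 fold change were −0.20 to 0.10 for Tomm40, −0.17 to 0.089 for Tomm20, −0.048 to 0.23 for Tomm70a and −0.38 to 0.026 for Tomm22. In TIM23 they were −0.42 to 0.034 for Timm23, −0.20 to 0.11 for Timm17a, −0.45 to 0.027 for Timm17b and −0.26 to 0.13 for Timm50, and in the peptidase −0.13 to 0.12 for Pmpca and −0.25 to 0.027 for Pmpcb. All 10 intervals held 0. With the run as a covariate, Tomm22 was at 0.0082, Timm23 at −0.013, Timm17b at −0.080 and Pmpcb at −0.13, none of them called.

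Within the first run, MFN2 41 to 43 were compared with WT 44 to 47. Sex was mixed and not balanced in it, with males 41 and 43 among MFN2 and 44 among WT. No member was called, 1 of all tested genes was (0.00627%), and 1 member had an unadjusted p below 0.05, beside 7.2% of all genes. Groups did not overlap for 2 members, beside 8.81% of all genes. The member with the unadjusted p below 0.05 was Dnajc15, a J-domain protein of the import motor. It was at 20.8, 19.8 and 16.2 CPM in MFN2 41, 42 and 43, and at 23.3, 20.9, 26.3 and 24.8 CPM in WT 44 to 47. All 3 MFN2 libraries were below all WT libraries, narrowly so for library 41. The log2 fold change was −0.32 ± 0.12 (SE; adjusted p = 0.635 by edgeR), and in MFN2 72 to 76 Dnajc15 lay within the range of WT, at 21.2 to 24.6 CPM. The other member with separate groups was Pam16, which regulates the motor. It was at 10.7, 11.4 and 10.8 CPM in MFN2 41 to 43 and at 10.3, 9.8, 10.4 and 10.1 CPM in WT, so that it lay above WT (0.13 ± 0.095; adjusted p = 0.673 by edgeR). In MFN2 72 to 76 Pam16 went the other way, at 9.05, 8.28, 9.41, 9.52 and 8.97 CPM. These lay below all WT libraries (−0.159 ± 0.080; adjusted p = 0.165 by edgeR). Between the runs of MFN2 mice Pam16 was at −0.285 ± 0.089 (adjusted p = 0.112 by edgeR), and a joint fit of all 3 groups called it. In the first run without library 43, no member was called or had an unadjusted p below 0.05, beside 5.67% of all genes at that unadjusted p. There, 3 members had separate groups, beside 14.7% of all genes. The unadjusted count was also 0 without library 44, 46 or 47 and was 2 without library 41. With each library left out in turn, the share of all genes ran from 2.57% (without 47) to 15.1% (without 41).

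MFN2 72 to 76 against WT gave more differences. Of the 32 members 7 were called (21.9%), beside 23.5% of all genes tested, so that the share of import genes called was close to the background in this fit. In a joint fit of all 3 groups it was 5 members (15.6%) beside 7.68% of all genes, and without a filter on low counts 7 members (21.9%) beside 11% of a larger set of 37695 genes. Timm44 and Grpel2 were higher (11.4% of all genes were called higher) and Tomm34, Timm23, Timm13, Tomm22 and Tomm7 were lower (12.2% of all genes were called lower). The groups did not overlap for 8 members (25.0%), beside 19.7% of all genes. No member moved by more than 0.5 on the log2 scale, whereas 12.8% of all genes did. The highest SE was 0.249 among members and 6.14 among all genes, which were not matched to the members by level. The members' median log2 fold change was −0.031, beside 0.0045 for all genes. These libraries and those of the first run were set against the same 4 WT libraries.

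**Figure D2:**
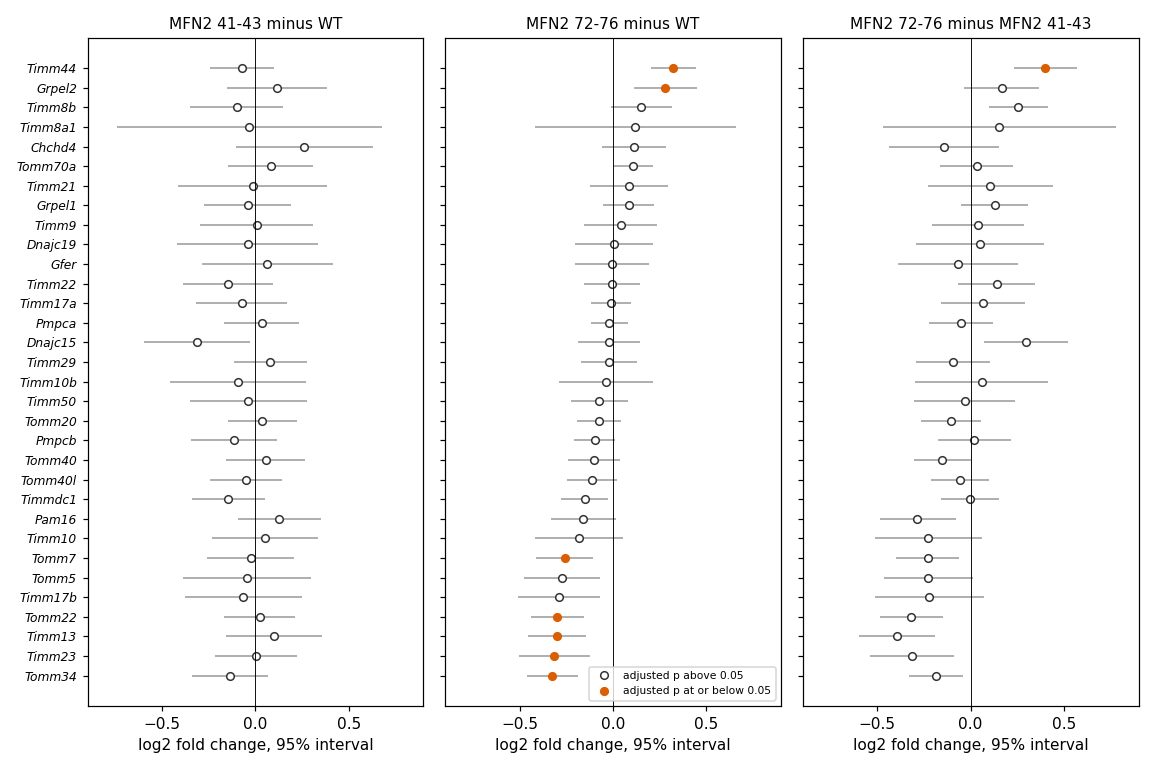
Log2 fold change (points) with 95% intervals (lines) of the 32 tested import genes, ordered by the comparison in the middle panel; filled points have an adjusted p at or below 0.05. No point is filled in the left panel, 7 are in the middle panel, and 1, Timm44, in the right panel.

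Timm44 stood out. Its protein anchors mitochondrial Hsp70 to the exit of the TIM23 channel, and it was the called member with the lowest adjusted p. It was at 45.1, 44.8, 43.4 and 46.2 CPM in WT 44 to 47 and at 40.7, 43.5 and 42.5 CPM in MFN2 41 to 43, but at 53.9, 57.3, 60.4, 57.4 and 51.1 CPM in MFN2 72 to 76. All 5 libraries of the second run were above all 7 of the first, whatever their genotype. Against WT, MFN2 72 to 76 were 1.25-fold higher, a log2 fold change of 0.32 ± 0.056 (SE; 95% interval 0.20 to 0.45; adjusted p = 0.00212 by edgeR). MFN2 41 to 43 differed from WT by −0.073 ± 0.073 (adjusted p = 0.729 by edgeR). Between the runs of MFN2 mice the log2 fold change was 0.40 ± 0.074 (adjusted p = 0.0397 by edgeR).

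Grpel2, in the same motor, releases ADP from mitochondrial Hsp70. It was at 13.5, 14.8, 13.6 and 11.8 CPM in WT 44 to 47, at 15.5, 12.9 and 15.0 CPM in MFN2 41 to 43, and at 17.0, 15.3, 16.1, 16.4 and 16.8 CPM in MFN2 72 to 76. The last 5 were above all WT mice, and library 73 was just below library 41. The log2 fold change of MFN2 72 to 76 against WT was 0.28 ± 0.078 (adjusted p = 0.0224 by edgeR), and it lost the threshold without library 46 or 47, without a filter and in a joint fit of 3 groups. The ratio per length of Grpel1 to Grpel2 was 4.52 ± 0.266 in MFN2 72 to 76 (n = 5), beside 4.66 ± 0.61 in MFN2 41 to 43 and 5.18 ± 0.249 in WT, and the values of MFN2 72 to 76 and WT overlapped (4.21 to 4.85 and 4.84 to 5.44). The other motor genes Grpel1, Pam16, Dnajc15 and Dnajc19 were not called, with log2 fold changes from −0.16 to 0.084.

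Of the 8 tested Tomm genes, 3 fell and none rose, beside 12.2% and 11.4% of all genes. Tomm22 was at 28.5, 28.3, 30.0 and 26.1 CPM in WT 44 to 47 and at 24.7, 24.0, 21.8, 22.3 and 21.7 CPM in MFN2 72 to 76, while MFN2 41 to 43 were at 28.2, 27.5 and 29.4 CPM. The second run lay below all other libraries. The log2 fold change against WT was −0.30 ± 0.067 (adjusted p = 0.00788 by edgeR), and that of MFN2 41 to 43 was 0.024 ± 0.082 (adjusted p = 0.926 by edgeR).

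Tomm34 was at 36.8, 42.2, 44.8 and 42.5 CPM in WT 44 to 47, at 37.1, 38.3 and 36.9 CPM in MFN2 41 to 43, and at 31.0, 35.1, 32.4, 33.4 and 33.6 CPM in MFN2 72 to 76. WT library 44 was the low one among the controls, at the level of the first MFN2 run. MFN2 72 to 76 differed from WT by −0.33 ± 0.063 (adjusted p = 0.00382 by edgeR), and MFN2 41 to 43 by −0.14 ± 0.088 (adjusted p = 0.65 by edgeR).

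Tomm7 was at 42.5, 47.8, 51.1 and 41.3 CPM in WT 44 to 47, at 42.7, 47.4 and 43.2 CPM in MFN2 41 to 43, and at 37.1, 40.5, 35.5, 40.5 and 36.9 CPM in MFN2 72 to 76. The gap to the lowest WT mouse was less than 1 CPM. Against WT this was a log2 fold change of −0.26 ± 0.071 (adjusted p = 0.0202 by edgeR), and it lost the threshold without library 45, 46 or 74, with library size as the only scaling and in the joint fit. Tomm5, another small subunit, was at −0.27 ± 0.095 (adjusted p = 0.0522 by edgeR), just short of the threshold, with groups that overlapped.

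The receptor genes Tomm20 and Tomm70a and the pore gene Tomm40 were not called. Tomm20 was at 185, 175, 182 and 166 CPM in WT 44 to 47, at 175, 188 and 176 CPM in MFN2 41 to 43, and at 176, 159, 178, 161 and 163 CPM in MFN2 72 to 76, a log2 fold change of −0.074 ± 0.055 (adjusted p = 0.353 by edgeR). Tomm40 was at 49.7, 56.8, 60.4 and 52.2 CPM in WT, at 54.2, 58.8 and 55.9 CPM in MFN2 41 to 43, and at 50.7, 52.9, 50.5, 53.6 and 47.1 CPM in MFN2 72 to 76, with −0.10 ± 0.064 (adjusted p = 0.274 by edgeR). Tomm70a was at 154, 153, 166 and 155 CPM in WT, at 157, 150 and 186 CPM in MFN2 41 to 43, and at 178, 162, 174, 164 and 167 CPM in MFN2 72 to 76, with 0.11 ± 0.050 (adjusted p = 0.127 by edgeR). MFN2 72 to 76 overlapped with WT in each case. With library size as the only scaling, Tomm70a was called higher (0.18; adjusted p = 0.0218 by edgeR).

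**Figure D3:**
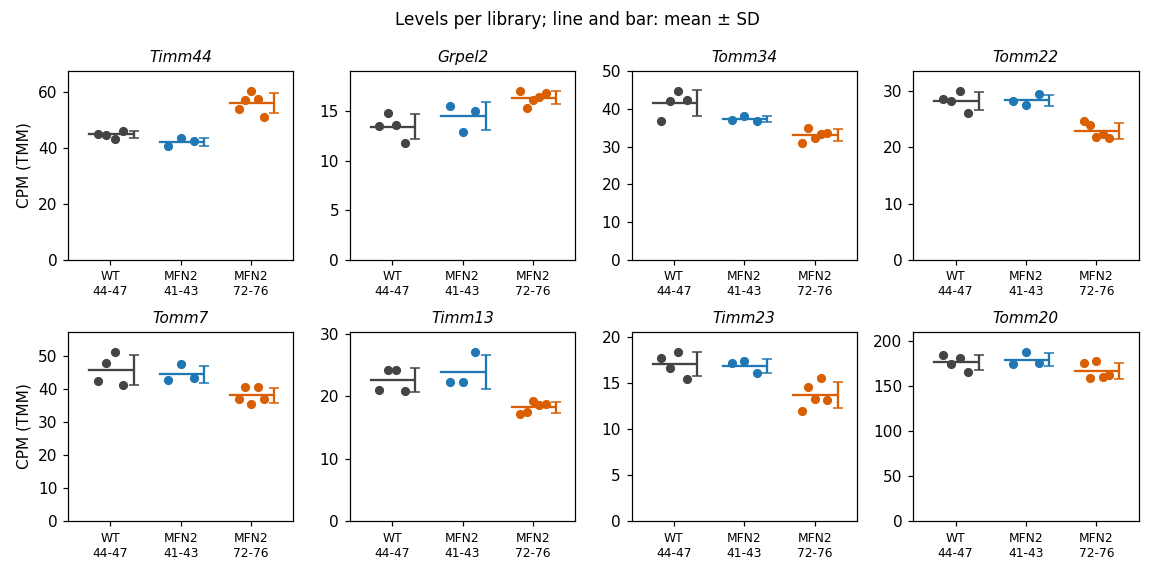
Level in CPM (scaled by TMM) of the 7 called members and of Tomm20 in every library; points are mice, horizontal lines are means and bars are SDs. For Timm44 the 5 libraries MFN2 72 to 76 lie between 51.1 and 60.4 CPM, above the 7 others, and for Tomm22 they lie between 21.7 and 24.7 CPM, below the 7 others.

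In the TIM23 translocase, Timm23 fell and Timm17a, Timm17b, Timm50 and Timm21 were not called. Timm23 was at 17.7, 16.6, 18.3 and 15.4 CPM in WT 44 to 47, at 17.1, 17.4 and 16.0 CPM in MFN2 41 to 43, and at 11.9, 14.5, 13.2, 15.5 and 13.1 CPM in MFN2 72 to 76. Library 75 overlapped with WT. This gave a log2 fold change of −0.32 ± 0.087 (adjusted p = 0.0217 by edgeR), and it lost the threshold without library 46 or 74 and with library size as the only scaling.

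Timm17b, Timm17a and Timm50 did not pass the test. Timm17b was at 8.51, 8.15, 9.7 and 9.5 CPM in WT 44 to 47, at 9.19, 9.05 and 7.18 CPM in MFN2 41 to 43, and at 8.08, 6.52, 7.72, 7.47 and 6.73 CPM in MFN2 72 to 76, which lay below WT (−0.29 ± 0.10; adjusted p = 0.0573 by edgeR). Timm17a was at 69.4, 71.4, 69.4 and 68.3 CPM in WT, at 68.7, 72.6 and 54.9 CPM in MFN2 41 to 43, and at 71.4, 67.5, 64.1, 73.4 and 68.2 CPM in MFN2 72 to 76, on both sides of WT (−0.011 ± 0.050; adjusted p = 0.898 by edgeR). Timm50 was at 15.1, 15.8, 16.4 and 14.1 CPM in WT, at 18.1, 13.3 and 13.1 CPM in MFN2 41 to 43, and at 13.9, 14.5, 14.7, 14.4 and 15.4 CPM in MFN2 72 to 76, again with overlap (−0.073 ± 0.070; adjusted p = 0.479 by edgeR). The ratio per length of Timm17a to Timm17b was 3.07 ± 0.286 in MFN2 72 to 76, beside 2.53 ± 0.254 in WT and 2.5 ± 0.0894 in MFN2 41 to 43, and the values of MFN2 72 to 76 and WT overlapped (2.69 to 3.35 and 2.32 to 2.84).

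Among the small TIM chaperones, Timm13 fell and the other 5 tested members were not called. Timm13, the partner of the Timm8 proteins in a hexamer that shields the precursor of Timm23, was at 21.0, 24.2, 24.1 and 20.8 CPM in WT 44 to 47, at 22.2, 22.3 and 27 CPM in MFN2 41 to 43, and at 17.2, 17.4, 19.2, 18.6 and 18.7 CPM in MFN2 72 to 76. The second run was below all other libraries. The log2 fold change was −0.30 ± 0.072 (adjusted p = 0.0112 by edgeR), and that of MFN2 41 to 43 was 0.10 ± 0.11 (adjusted p = 0.751 by edgeR). Timm8b was at 0.15 ± 0.076 (adjusted p = 0.161 by edgeR). Timm8b was called higher with library size as the only scaling (0.22; adjusted p = 0.0407 by edgeR) and without library 46 (0.23; adjusted p = 0.0259 by edgeR).

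No member of TIM22, of the MIA40 relay or of the processing peptidase was called. Timm22 was at −0.0072 ± 0.070 and Timm29 at −0.022 ± 0.069, and of the relay Chchd4, which encodes MIA40, was at 0.11 ± 0.079 and Gfer, which reoxidises it, at −0.0061 ± 0.092. Pmpca was at 62.3, 62.2, 59.6 and 61.9 CPM in WT 44 to 47, at 58.7, 59.1 and 69.2 CPM in MFN2 41 to 43, and at 63.1, 58.0, 61.3, 58.1 and 62.0 CPM in MFN2 72 to 76, a log2 fold change of −0.020 with a 95% interval of −0.12 to 0.081. Pmpcb was at 41.9, 44.2, 46.1 and 42.6 CPM in WT, at 42.2, 43.1 and 34.4 CPM in MFN2 41 to 43, and at 40.9, 40.6, 42.2, 38.7 and 41.1 CPM in MFN2 72 to 76, a log2 fold change of −0.099 with a 95% interval of −0.21 to 0.011. MFN2 72 to 76 overlapped with WT for both genes.

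Between the runs of MFN2 mice, where genotype is shared, 1 of 32 members was called (3.12%), beside 2.29% of all genes (1.15% higher). It was Timm44, as given above. Libraries 41 and 43 were male and 42 and 72 to 76 female, so sex was not balanced between these runs. Its part was not tested. DESeq2 called 7 members here (21.9%, beside 11.1% of all genes). A joint fit of all 3 groups called 4 (12.5%, beside 8.4% of all genes). Groups did not overlap for 10 members (31.2%), beside 18.2% of all genes. Among the members with separate groups, Timm13 was at −0.40 ± 0.089 (adjusted p = 0.0585 by edgeR), Tomm22 at −0.32 ± 0.073 (adjusted p = 0.0617 by edgeR) and Timm8b at 0.26 ± 0.069 (adjusted p = 0.0843 by edgeR). Without library 43 this comparison called Timm13, Timm44, Timm8b, Tomm22 and Tomm5, and 2325 genes in place of 365, and 13 members had separate groups, beside 34.3% of all genes. Without any other single library it called no member, and the adjusted p of Timm44 was then between 0.0585 and 0.124.

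Sex and cell types also moved with MFN2 72 to 76. All 5 were female, as were WT 45 to 47. With WT 44 left out, so that all libraries were of the same sex, the 7 members were called again together with Timm17b and Timmdc1 (28.1% of members, beside 28.3% of all genes), and Timm44 was at 0.32 (adjusted p = 0.00282 by edgeR). All 4 microglia markers (Cx3cr1, P2ry12, Tmem119 and Csf1r) were lower, with summed levels of 72.7 to 89.7 CPM against 91.7 to 123 CPM in WT. Csf1r was the most abundant and none was at 0. Of 4 astrocyte markers, Gfap, the most abundant, was lower by 1.08 on the log2 scale (log2 fold change −1.08; adjusted p = 0.0219 by edgeR) and Aldh1l1 was lower too, and their sum was 1592 to 2783 CPM against 2902 to 4023 CPM. Of the 3 endothelial markers Cldn5 was called lower (log2 fold change −0.81). Flt1 was at 0.65 and Pecam1 at −0.029, neither called. The endothelial sum was 102 ± 8.66 CPM, beside 89.8 ± 12.1 CPM in WT (SD). Of the 5 neuronal markers Syt1 was called higher (0.48). Snap25 was at −0.18, Tubb3 at −0.11, Rbfox3 at 0.062 and Nefl at 0.0395, none called. Of the 7 tested forebrain markers only Nrgn was called, and it was higher. None of the 6 motor neuron or 4 oligodendrocyte markers was called. The part of these cells in the changes of the import genes was not tested, and in whole tissue fewer cells of a type and less RNA per cell cannot be told apart.

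A list of further genes of the import route was examined beside them. Of 25 genes outside the rule that serve the same route, all tested, none was called over 12 libraries or within the first run. In MFN2 72 to 76 against WT, 10 were called (40.0%), 4 higher and 6 lower, beside 23.5% of all genes, 11.4% higher and 12.2% lower. Romo1, whose protein associates with TIM23, was at 16.4, 19, 18.5 and 17.6 CPM in WT 44 to 47, at 17.2, 17.0 and 17.3 CPM in MFN2 41 to 43, and at 12.3, 11.8, 11.8, 12.3 and 12.3 CPM in MFN2 72 to 76. It fell by 0.56 on the log2 scale against WT (log2 fold change −0.56 ± 0.068; adjusted p = 0.00035 by edgeR) and differed between the runs of MFN2 mice (−0.51 ± 0.069; adjusted p = 0.0159 by edgeR), with no overlap in either.

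Hspa9, the mitochondrial Hsp70 on which Timm44 and Grpel2 act, rose. It was at 265 to 295 CPM in WT and 303 to 327 CPM in MFN2 72 to 76, and rose by 0.19 ± 0.048 on the log2 scale (adjusted p = 0.0146 by edgeR). Hspe1, the co-chaperonin that helps fold proteins after import, fell, and was at 53.9 to 65.5 CPM in WT and 44.9 to 46.2 CPM in MFN2 72 to 76 (log2 fold change −0.38 ± 0.056; adjusted p = 0.000878 by edgeR). Hspd1, the chaperonin itself, was at 0.031 ± 0.047 (adjusted p = 0.675 by edgeR). In the first run the corresponding log2 fold changes were −0.11, −0.24 and −0.17, and none was called. Aifm1, which tethers MIA40, rose (0.23 ± 0.058; adjusted p = 0.0141 by edgeR) while MIA40 itself was not called.

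Of the cytosolic factors that guide precursors to TOM, Ubqln1 fell (log2 fold change −0.28 ± 0.066; adjusted p = 0.0108 by edgeR) and Hsp90aa1 rose (0.19 ± 0.058; adjusted p = 0.0351 by edgeR). Mtx3 and Mtch1 of the outer membrane fell, and Pitrm1, which degrades cleaved presequences, rose. Hspa8, Dnaja1 and Dnaja2 were not called. The median log2 fold change of the 25 genes was 0.031.

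The promoters of the called genes are shown because import genes are known targets of ETS-family factors such as GABP. RefSeq promoters (GRCm38.p6, 250 bases before to 50 after the start) were found for 31 of 35 members, and not for Grpel2, Timm21, Tomm40l and Tomm7. The letters CCGGAAG, the core of the ETS site, occurred on either strand in the promoters of 13 of the 31 members (41.9%), beside 9.93% of 27025 genes. They were Grpel1, Pmpca, Pmpcb, Timm10, Timm10b, Timm23, Timm29, Timm8a2, Timm8b, Timmdc1, Tomm22, Tomm34 and Tomm70a. The same search for a palindromic NRF-1 consensus found 0 members (1.07% of genes), and that for a YY1 consensus found 1 member, Timm50 (0.995% of genes). The 27025 genes include ones not tested in this tissue, and the shares among tested genes alone were not determined. The windows below run from 120 bases before the start to 30 after it on the gene's strand, with CCGGAAG or its reverse complement CTTCCGG in capitals, overlapping matches included.
Tomm22, chr15:79670748-79670897, plus strand: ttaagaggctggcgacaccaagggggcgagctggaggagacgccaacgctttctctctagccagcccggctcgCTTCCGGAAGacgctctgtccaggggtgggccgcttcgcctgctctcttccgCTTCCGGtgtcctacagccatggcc
Timm23, chr14:32201862-32202011, minus strand: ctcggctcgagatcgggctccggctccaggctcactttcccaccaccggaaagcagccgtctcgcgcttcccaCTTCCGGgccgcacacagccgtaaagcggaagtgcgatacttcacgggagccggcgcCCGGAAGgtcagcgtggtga
Tomm34, chr2:164071073-164071222, minus strand: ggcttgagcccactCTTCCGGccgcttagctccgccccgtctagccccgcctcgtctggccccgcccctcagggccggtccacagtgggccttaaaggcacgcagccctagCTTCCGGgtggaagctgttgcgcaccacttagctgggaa
Timm13, chr10:80900940-80901089, minus strand: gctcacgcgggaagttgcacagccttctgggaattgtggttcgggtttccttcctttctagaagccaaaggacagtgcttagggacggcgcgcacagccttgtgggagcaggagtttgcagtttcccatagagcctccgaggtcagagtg
Timm44, chr8:4275876-4276025, minus strand: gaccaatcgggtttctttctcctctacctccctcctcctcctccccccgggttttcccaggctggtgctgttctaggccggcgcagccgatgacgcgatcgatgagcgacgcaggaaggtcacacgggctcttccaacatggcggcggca

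Tomm22 and Timm23 each held a match that begins 47 bases before the start, and each a further match after the start. In Tomm22 the first match overlaps its own reverse complement, which begins 44 bases before the start. Tomm34 has a pair of listed starts, and the matches of the window shown begin 106 and 9 bases before its start. Timm13, which fell, and Timm44, which rose, held no match in their promoters, so that called members of either direction were among those without these letters. A match describes letters only and says nothing of binding.

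The median exon length of the members was below that of all tested genes, and the median fold change of all genes rose with exon length in each genotype comparison. This view was chosen after the fold changes were seen. The members' median exon length was 3355 bases, beside 4275 bases over the 15902 tested genes with an annotated length, and 21 of 32 members lay below the latter. In 5 bins of exon length with equal numbers of genes, from short to long, the median log2 fold change of all genes was −0.027, −0.023, −0.017, 0.0098 and 0.050. That of the 10, 7, 8, 5 and 2 members in these bins was −0.22, −0.073, −0.0076, −0.021 and 0.049. Over all genes the medians also rose from the shortest to the longest bin in the first run, at −0.042, −0.016, −0.0017, 0.012 and 0.026, and over 12 libraries, from −0.026 to 0.044. In the first run the 10 members of the shortest bin had a median of −0.011, above that of all its genes. Between the runs of MFN2 mice the medians of all genes showed no steady rise, at 0.0091, −0.0185, −0.0165, −0.013 and 0.014. The members of the shortest bin had a median of −0.23 there. The bins of members were not compared with those of all genes by a test, and the 10 members of the shortest bin include called ones. Timm8b, the shortest member at 518 bases, lay above 0. The part of length in these results was not tested.

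**Figure D4:**
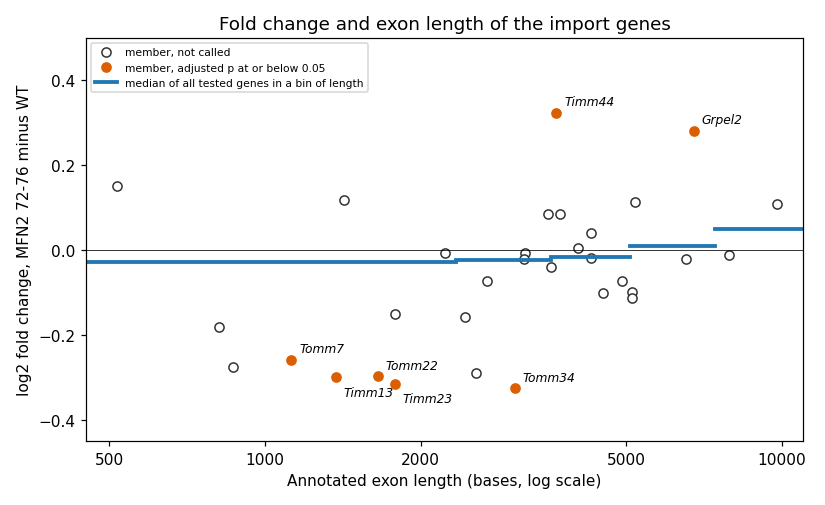
Log2 fold change of MFN2 72 to 76 against WT (vertical) by exon length in bases (horizontal, log axis) of the 32 import genes; lines are medians of all tested genes in each of 5 bins of length, and filled points have an adjusted p at or below 0.05. The lower called members have exon lengths from 1125 bases (Tomm7) to 3040 bases (Tomm34), and the higher ones 3664 bases (Timm44) and 6759 bases (Grpel2).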

How the data were processed

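Lumbar spinal cord RNA of 12 mice was sequenced as 1 library per mouse. The authors deposited whole-number counts per Ensembl gene, not normalized, after adapter trimming and alignment to GRCm38 with STAR. How reads were counted, and whether by strand, is not given in the sources used here, so genes with overlapping exons are uncertain. Replicates are separate mice, and their number limits the precision. For members with few counts, such as Timm8a1, the number of reads limits it as well.

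Genes above 1 CPM in 3 or more of the 12 libraries entered the tests. Counts were normalized with TMM, and the quasi-likelihood test of edgeR 4.0.16 (R 4.3.3, legacy form, robust option) was run for 4 comparisons, which share libraries: both genotypes over 12 libraries, each run of library numbers of MFN2 mice against WT, and the runs within MFN2 mice. P-values were adjusted by the method of Benjamini and Hochberg over all genes (threshold 0.05), and SEs came from the F statistic. RPKM is CPM per kilobase of exon (GENCODE M21). Every member is given by level. Values per library are given for members past the threshold in any comparison or with separate groups over 12 libraries, and for the cores of TOM, TIM23 and the peptidase. Dnajc15 and Pam16, and which markers and other import genes are given in numbers, were chosen after their values were seen. The members, lists, tests and this rule were chosen with earlier results of these data known. Other filters, scalings, DESeq2 1.42.0, the run as a covariate, a joint fit of 3 groups and leaving out each library served as alternatives. Ratios and levels by the longest transcript and counts of separate groups without library 43 were added after the data were seen. All pairs of libraries within a genotype differed by more than sampling noise. Some genes of the lists are not reported here.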

Additional observations from a re-analysis of the deposited data

Results flagged for a closer look

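Among 64 groups of import gene levels (32 genes in WT and in MFN2 mice), 5 held a library far from the others by Dixon's ratio of the gap to the range, where chance alone flags 1 in 20 groups, about 3.2 here. Pmpca was lowest among WT mice in library 46, at 59.6 CPM (ratio 0.867), and Tomm70a was highest there, at 166 CPM (ratio 0.835). Grpel2 was lowest among MFN2 mice in library 42, at 12.9 CPM (ratio 0.537). Timm17a and Timm21 were lowest among MFN2 mice in library 43, at 54.9 CPM (ratio 0.534) and 6.24 CPM (ratio 0.599). Library 43 is the one whose forebrain and caudal genes stood apart.

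Timm44 differed between the runs of MFN2 mice by 0.40 on the log2 scale (adjusted p = 0.0397 by edgeR). All WT libraries are in the first run, so whether a genotype difference depends on the run cannot be estimated. The call was lost without a filter on low counts (adjusted p = 0.061 by edgeR) and without any 1 of libraries 41, 42 and 72 to 76 (adjusted p from 0.0585 to 0.124 by edgeR). Timm44 was higher than all first-run libraries in 5 of 5 libraries of the second run.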

How the results depend on the processing

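No paired analysis was possible because the labels give no litter or other pairing of mice between the genotypes.

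Over 12 libraries 0 members were called under every alternative, while DESeq2 called 200 genes, and leaving out 1 library called 0 to 19 genes (19 without library 43, 7 without 41 and 1 without 76). Some fold changes changed sign, among them Timm44, Tomm22 and Timm13, which were at 0.18, −0.18 and −0.15 in the comparison as reported. With library size as the only scaling, Pmpca was at 0.042, Timm17a at 0.0087, Tomm20 at 0.0094 and Tomm40 at 0.0026. With the run as a covariate, Timm44 was at −0.089, Timm13 at 0.084, Tomm40 at 0.040, Tomm20 at 0.021, Pmpca at 0.020 and Tomm22 at 0.0082. Pmpca was at 0.00040 with 1 CPM asked of all 12 libraries, at 0.00023 with RLE scaling and at 0.0011 with upper quartile scaling. With 1 library left out, Pmpca ran from −0.034 to 0.0035 and Tomm40 from −0.093 to 0.0023. None of these was called.

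Within the first run 0 members were called throughout. The count of genes was 4 with DESeq2, 0 without a filter, 0 in the joint fit and 0 to 2 with 1 library left out. Timm23 was at −5.8e-05 with 1 CPM asked of all 12 libraries, −0.0081 without a filter, −0.013 in the joint fit and −0.024 with upper quartile scaling, where Tomm22 was at −0.0030. With 1 library left out, Timm13 ran from −0.0030 to 0.15, Timm23 from −0.043 to 0.040, Tomm22 from −0.012 to 0.055 and Tomm7 from −0.077 to 0.034.

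For MFN2 72 to 76 against WT, 5 to 9 members were called, and Timm44, Tomm34, Tomm22 and Timm13 in all 18 alternatives; Grpel2 was called in 14, Timm23 in 15 and Tomm7 in 13. The joint fit called 1224 genes (7.68%) and 5 members (15.6%), and leaving out 1 library 2355 (WT 45) to 4517 (WT 44), with 2487 without WT 46. With library size only, Pmpca was at 0.045 and Timm17a at 0.054, and with upper quartile scaling Timm17a was at 0.0063; with library 74 left out it was at 0.013. The median of all genes was 0.070 with library size only, where 67.7% of called genes were higher, beside 48.3% with TMM, and 4 members were higher and 3 lower.

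Within MFN2 mice, 1 CPM in all 12 libraries called 234 genes, and no filter called 0 members. DESeq2 called 1775 genes (11.1%) and 7 members (21.9%), and the joint fit 1339 genes (8.4%) and 4 members (12.5%). Leaving out 1 library called 26 to 2325 genes (79 without 41, 2325 without 43, 52 without 72, 34 without 73, 26 without 74, 51 without 75 and 81 without 76) and 0 to 5 members. Of called genes, 72.5% were higher with library size only and 66.9% with upper quartile scaling, beside 50.4% with TMM. The median level of the 35 members in WT was 10.1 RPKM by the longest transcript in place of all exons. The causes of these shifts were not tested. With 3 to 8 mice a group, the smallest member difference called in the 4 comparisons as reported was −0.26 on the log2 scale (Tomm7, MFN2 72 to 76 against WT). Several smaller ones were called in the alternatives. Among them were Tomm70a with library size only (0.18, MFN2 72 to 76 against WT) and Tomm34 with DESeq2 within MFN2 mice (−0.19).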
